A study of Mus musculus with 6 samples.

Results

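The transcripts of 9 digestive-enzyme genes of the pancreatic acinar cell were followed in cultured mouse acini: the elastase genes Cela1, Cela2a, Cela3a and Cela3b, the chymotrypsin genes Ctrb1 and Ctrl, the carboxypeptidase genes Cpa1 and Cpb1, and the ribonuclease gene Rnase1. They were picked by gene name from the deposited table, so they are 9 of its 56953 genes, and all 9 had enough counts to be tested. That choice was made with earlier results of these data known. Comparisons of the 9 with all genes therefore describe them and do not test them as a set. RNA had been sequenced from 6 cultures that were harvested on day 3 of an ex vivo assay of acinar-to-ductal metaplasia (ADM), the process in which acinar cells give up enzyme secretion and form duct-like structures. The study asked what loss of DKK3, a secreted glycoprotein, does to acinar cells in that assay, and whether the added protein reverses it.

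The 3 groups had 2 libraries each. WT acini were wild type and untreated, DD acini came from Dkk3 knockout mice and were untreated, and DD + rDKK3 acini came from Dkk3 knockout mice and received the recombinant protein. All 6 cultures were embedded in Matrigel under Waymouth's medium with serum, antibiotics, trypsin inhibitor and dexamethasone, and DKK3 is lacking from the whole animal in the knockout rather than from acinar cells alone. The labelled ages were 10 and 11 weeks in WT, 12 and 13 weeks in DD and 14 and 15 weeks in DD + rDKK3, so age and group cannot be told apart. WT 2 was labelled female and the other 5 libraries male. The labelled ages rise from 10 to 15 weeks in the order in which the libraries are listed. Whether they were recorded for each animal or filled in could not be checked. If they were recorded, the 2 libraries of a group came from different mice. The labels name no strain and no batch.

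Acinar cells synthesise digestive enzymes as inactive precursors, pack them into zymogen granules and release them into the duct. Elastases and chymotrypsins are serine proteases that cut inside dietary proteins, carboxypeptidases are zinc enzymes that remove residues from the end of the resulting peptides, and pancreatic ribonuclease digests RNA. In acinar cells these genes are driven by a shared set of transcription factors, among them the PTF1 complex, which contains Ptf1a and Rbpjl and binds an E-box next to a TGGGAA box, and the nuclear receptor Nr5a2, which binds AAGGTCA.

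The libraries held 12018473 to 19750401 counts. Dkk3 itself was counted 10 times in WT 1, 1 time in WT 2, 11 times in DD 1, 9 times in DD 2 and 5 times in each DD + rDKK3 library, a level too low, and a gene-level count too coarse, to check the genotype labels. The 9 enzyme genes and 10 acinar transcription factors, the markers of the labelled cell type, were detected in every group. Markers of other cells were present too. The summed level of 14 ductal markers was 4857 to 7119 CPM (counts scaled to a common library size with TMM, the trimmed mean of M-values), that of 9 macrophage markers 142 to 325 CPM, that of 7 endothelial markers 106 to 183 CPM and that of 9 islet markers 164 to 300 CPM. Neutrophil and mast cell markers summed to at most 1.05 CPM, with 4 of 9 (Elane, Cma1, Mcpt4 and Tpsb2) at 0 in all libraries. The 10 fibroblast markers, none of them at 0 throughout, set 2 libraries apart, with 730 CPM in DD 2 and 819 CPM in DD + rDKK3 2 against 39.1 to 147 CPM in the other 4.

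The bases upstream of the transcription start are shown for 5 of the genes. Cela3a and Cela3b have nearly the same bases there and very different transcript levels. Cela1, Ctrb1 and Cpa1 were added for their fitted log2 fold changes in DD relative to WT (-1.04, -0.33 and -0.25). The 95% intervals of these values overlap, and a difference between the genes was not tested. Sequences are from GRCm39, with the start sites of GENCODE M39, and are written 5′ to 3′ on the strand of the gene, ending at the base before the start. Capitals mark the E-box CANCTG. They also mark TGGGAA, which reads TTCCCA where it lies on the other strand. The Nr5a2 motif AAGGTCA and a TATAAA box beginning 20 to 40 bases before the start are marked likewise. Cela1 lay at chr15:100585806-100585925 (minus), Cela3a at chr4:137137103-137137222 (minus), Cela3b at chr4:137157852-137157971 (minus), Ctrb1 at chr8:112417643-112417862 (minus) and Cpa1 at chr6:30639097-30639216 (plus).
Cela1: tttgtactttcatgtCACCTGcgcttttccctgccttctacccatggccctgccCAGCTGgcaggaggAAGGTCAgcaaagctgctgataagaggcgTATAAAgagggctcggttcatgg
Cela3a: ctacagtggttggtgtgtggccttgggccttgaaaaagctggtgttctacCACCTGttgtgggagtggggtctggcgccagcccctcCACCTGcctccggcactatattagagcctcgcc
Cela3b: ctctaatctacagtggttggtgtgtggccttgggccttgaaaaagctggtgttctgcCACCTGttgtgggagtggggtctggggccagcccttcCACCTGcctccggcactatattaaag
Ctrb1: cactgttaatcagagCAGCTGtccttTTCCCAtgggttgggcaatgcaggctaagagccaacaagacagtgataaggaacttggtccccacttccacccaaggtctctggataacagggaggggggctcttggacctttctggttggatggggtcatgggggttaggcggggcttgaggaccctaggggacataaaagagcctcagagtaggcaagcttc
Cpa1: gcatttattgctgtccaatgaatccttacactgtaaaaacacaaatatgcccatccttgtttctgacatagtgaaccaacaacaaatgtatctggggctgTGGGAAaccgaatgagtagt

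Motifs were searched on both strands over 250 bases before the start of each of 21757 protein-coding genes. CANCTG was found for 7 of the 9 genes, all but Cpa1 and Rnase1, and in 43.1% of all promoters. TGGGAA was found for 6 of the 9 (Cela3a, Cela3b, Ctrb1, Ctrl, Cpa1 and Rnase1) and in 22.7% of all. Both motifs within 30 bases of each other, as in the Ctrb1 sequence above, were found for Ctrb1 and Cela3a and in 3.36% of all, and in Cela3a the pair lay further upstream than the bases printed. AAGGTCA was found for Cela1 alone of the 9 and in 3.93% of all, and TATAAA in the window before the start for Cela1 alone and in 2.38% of all. CAGCTG reads the same on both strands, so each such match is 1 site. A match describes the letters only, and the series holds no measurement of binding.

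The genes differed widely in transcript level. Levels between genes are compared here as CPM per kilobase of exon, averaged over the 6 libraries. Ctrb1, chymotrypsinogen B, came first at 59645, 5.90 times the next gene, and did not overlap with it in any library. Cela3b (10102), Cpa1 (8946), Cela2a (7813) and Cela1 (4612) followed, and each of these overlapped with its neighbour over the range of the 6 libraries. Cpb1 (1651) lay below all of them without overlap. Ctrl (1228) overlapped with Cpb1. Rnase1 (520) and then Cela3a (3.45) lay below without overlap. The position of Cela1 depends on the length used: with the exons of the main transcript alone, an alternative added after the data were seen, its mean level was 7712 CPM per kilobase, next to Cela2a. By CPM, without regard to length, 6 of the 9 were among the 20 most abundant genes of these cultures, with Ctrb1 at rank 1, Cpa1 at 9, Cela3b at 12, Cela1 at 13, Cela2a at 14 and Cpb1 at 16, while Ctrl was at 84, Rnase1 at 201 and Cela3a at 10916.

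**Figure D1:**
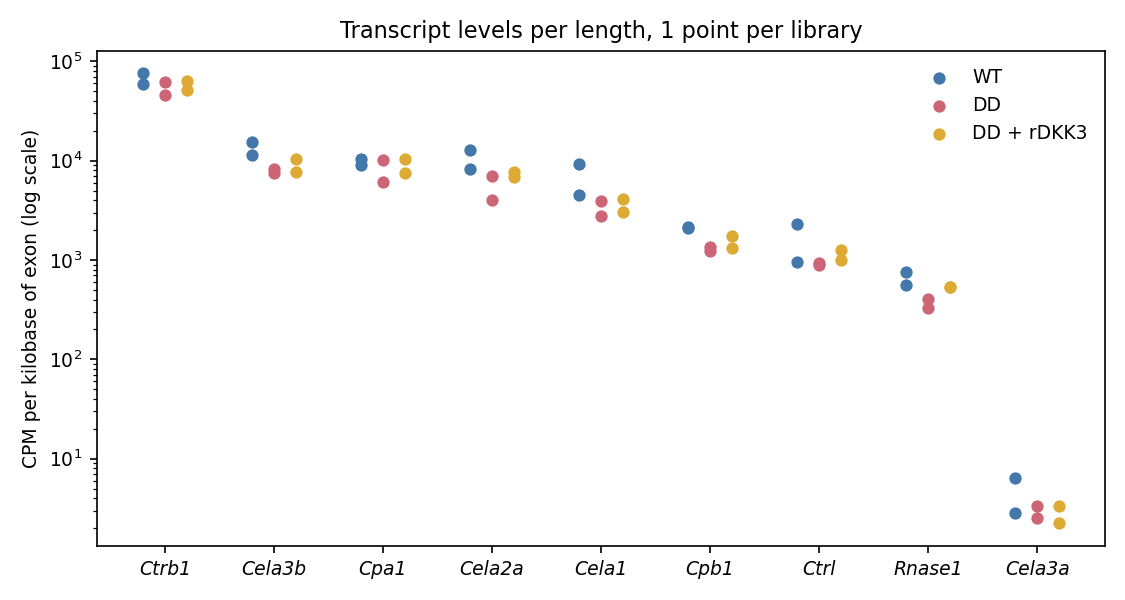
Transcript level of each gene in CPM per kilobase of exon (vertical axis, log scale), with 1 point per library, coloured by group and ordered by the mean over the 6 libraries. Ctrb1 lies above every other gene in all 6 libraries, and Cela3a lies between 2.25 and 6.46, below all others.

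Together the 9 genes took 11.4% and 10.3% of all counts of the WT libraries, 9.78% and 8.15% of the DD libraries and 10.6% and 8.67% of those given rDKK3. The group means were 10.9% ± 0.82 (SD, n = 2), 8.97% ± 1.15 (SD, n = 2) and 9.63% ± 1.36 (SD, n = 2). Both DD libraries lay below both WT libraries, while the DD + rDKK3 libraries overlapped with both other groups. Counting error on these shares is small (95% exact binomial interval of WT 1, 11.42% to 11.46%) and is the only error that such an interval covers. In bulk RNA, fewer acinar cells and less enzyme RNA per acinar cell cannot be told apart, here and in all results that follow. Ctrb1 alone made up 49.4% to 59.3% of the counts of the 9 genes and Cpa1 10.5% to 17.7%.

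All 9 genes were lower in DD than in WT by fitted log2 fold change, from -1.04 for Cela1 to -0.25 for Cpa1, with a median of -0.76 against 0.016 over all 14738 genes tested, of which 48.3% were below 0. None was called by edgeR's quasi-likelihood test at a Benjamini-Hochberg adjusted p under 0.05, in a comparison that called 6 genes in all (0.0407%). At an unadjusted p under 0.05, 5 of the 9 were lower (Rnase1, Cpb1, Cela3b, Cela2a and Cela1), against 3.99% of all genes. In 6 of the 9 both DD libraries lay below both WT libraries (these 5 and Ctrl), against 19.7% of all genes. DESeq2 on the same counts called 2 of the 9 (Rnase1 and Cpb1), limma-voom called 0, and edgeR without the filter on low counts called 4 (Cela1, Cela2a, Ctrl and Rnase1). All 10 fibroblast markers had a log2 fold change above 0 in the same comparison, with a median of 1.82, and DD 2 was the DD library with the high values. Without DD 2 the median of the 9 enzyme genes was -0.86. The part of the fibroblast signal in these values was not tested.

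With rDKK3 added, 8 of the 9 genes had a log2 fold change above 0 relative to DD, with a median of 0.20 against -0.0028 over all genes, of which 49.5% were above 0. None was called, and neither was any other gene (0% called by edgeR after adjustment), while DESeq2 called 5 genes and limma-voom 0, none of them among the 9. At an unadjusted p under 0.05, Rnase1 alone of the 9 was higher, against 0.597% of all genes. For Rnase1 and Ctrl both treated libraries lay above both DD libraries, a pattern seen in 15.1% of all genes. The median depends on 1 library: without DD + rDKK3 1 it was -0.036. In the same comparison 6 of the 14 ductal markers had both treated libraries below both DD libraries. Another 4 had both above, the pattern of 15.1% of all genes, and the share of all genes for the lower pattern was not computed. Without that share the count of 6 has no yardstick and is not read as a change of ductal markers. Of the 14 ductal markers, 10 had a log2 fold change below 0 and 4 above, with a median of -0.26, and 0 were called. Tspan8 and Krt7, a tetraspanin and a keratin of duct cells, had the smallest p among them (log2 fold changes of -1.11 and -0.50, unadjusted p = 0.0102 and 0.0126, adjusted p = 1.0 for both by edgeR's quasi-likelihood test). Muc1, the ductal marker with the next smallest p, was above 0 (log2 fold change 0.37, unadjusted p = 0.0645 by edgeR's quasi-likelihood test). In DD relative to WT, 9 of the 14 ductal markers were above 0 and 5 below, with a median of 0.037. In DD + rDKK3 relative to WT, 4 were above 0 and 10 below, with a median of -0.28. The part of the ductal signal in the enzyme values was not tested.

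Relative to WT, all 9 genes were still lower in DD + rDKK3, with a median log2 fold change of -0.52 against 0.017 over all genes, of which 48.4% were below 0. None of the 9 was called after adjustment, in a comparison that called 7 genes (0.0475%), DESeq2 and limma-voom likewise called 0 of the 9, and edgeR without the filter on low counts called Cela1. The 10 fibroblast markers were again above 0, with a median of 2.05, and without DD + rDKK3 2 the median of the 9 enzyme genes was -0.36. Cela1 and Cela3b were lower at an unadjusted p under 0.05, as were 8% of all genes. In 5 of the 9 (Cela1, Cela2a, Cela3b, Cpb1 and Rnase1) the groups did not overlap, against 27.1% of all genes. The 3 comparisons share libraries, so their values stand side by side and are not separate evidence.

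**Figure D2:**
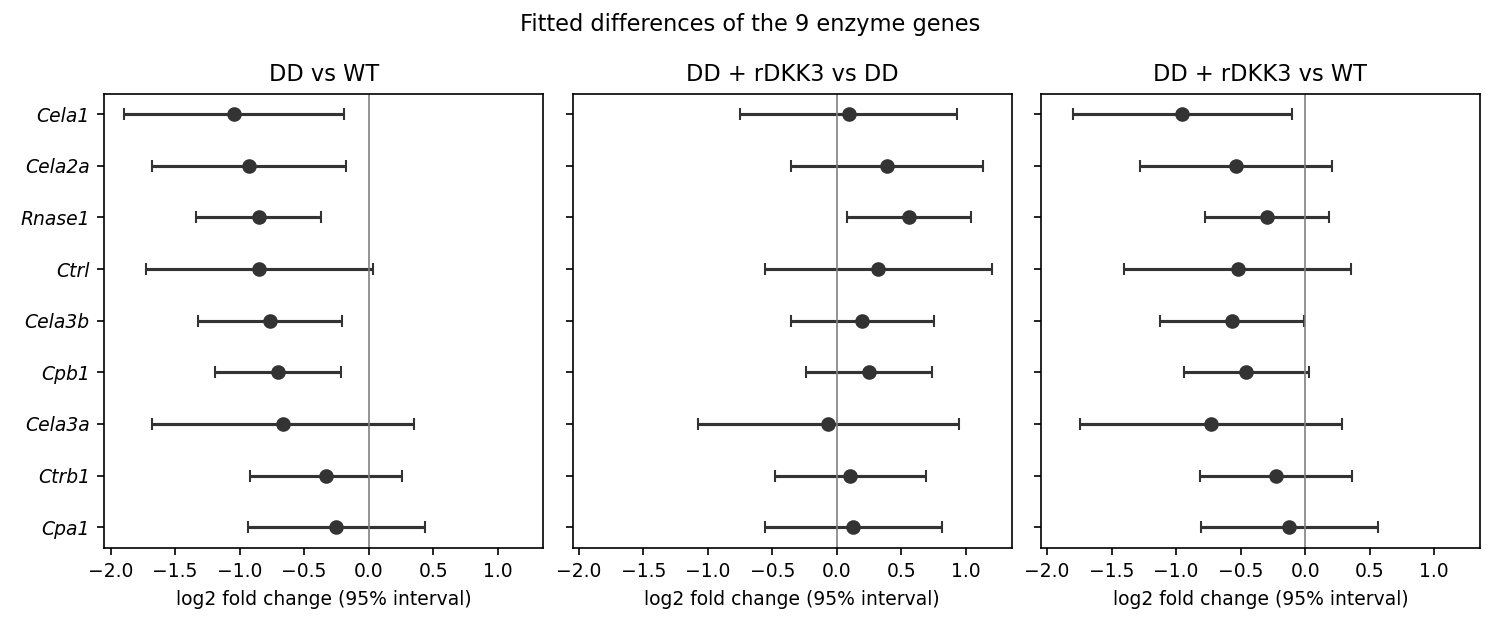
Fitted log2 fold change of each gene (points) with its 95% interval (bars) in the 3 comparisons, from the edgeR fit over all 6 libraries. In DD relative to WT the intervals of Cela1, Cela2a, Rnase1, Cela3b and Cpb1 lie below 0, and in DD + rDKK3 relative to DD the interval of Rnase1 alone lies above 0, none of them past the adjusted threshold.

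Among the elastases, Cela1 (chr15:100572302-100585802, minus strand, 8 exons), a pancreatic elastase in the mouse, measured 17253 and 8426 CPM in WT, 5114 and 7345 CPM in DD, and 7570 and 5703 CPM in DD + rDKK3. WT 1 was far above all other libraries and WT 2 was the next highest, so that neither knockout group overlapped with WT. The log2 fold change was -1.04 (SE 0.37, adjusted p = 0.586 by edgeR's quasi-likelihood test) in DD relative to WT and -0.95 (SE 0.36) in DD + rDKK3 relative to WT, and it was 0.09 (SE 0.36) between treated and untreated DD. Without WT 1 the first of these was -0.42 and the second -0.32, and Cpb1 then had the lowest value of the 9 genes in DD relative to WT (-0.67).

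Cela2a (chr4:141542273-141553471, minus strand), whose product cuts after large hydrophobic residues, measured 13811 and 8990 CPM in WT, 4378 and 7620 CPM in DD, and 8371 and 7366 CPM in DD + rDKK3. DD 1 was the lowest library by far, and DD 2 lay inside the range of the treated cultures. Fitted log2 fold changes were -0.93 (SE 0.32) in DD relative to WT, 0.39 (SE 0.32) in DD + rDKK3 relative to DD and -0.53 (SE 0.32) in DD + rDKK3 relative to WT. The first was -0.57 without WT 1 and -0.56 without DD 1, the second was 0.024 without DD 1 and 0.85 without DD 2, and the third was -0.17 without WT 1.

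Cela3b (chr4:137148310-137157851, minus strand), a protease with little activity on elastin despite its name, measured 14145 and 10637 CPM in WT, 6951 and 7658 CPM in DD, and 9532 and 7200 CPM in DD + rDKK3. The DD libraries lay close together and below both WT libraries, and the treated libraries overlapped with DD but not with WT. Fitted log2 fold changes were -0.76 (SE 0.24) in DD relative to WT, 0.20 (SE 0.24) in DD + rDKK3 relative to DD and -0.57 (SE 0.24) in DD + rDKK3 relative to WT. Without WT 1 the first was -0.53 and the third -0.33, and without DD + rDKK3 1 the second was -0.036.

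Cela3a (chr4:137128865-137137102, minus strand) lies 11.2 kb from Cela3b on the same strand and was barely detected, with raw counts of 63 and 39 for WT, 51 and 54 for DD, and 60 and 40 for DD + rDKK3. These are 6.19 and 2.74 CPM in WT, 2.41 and 3.17 CPM in DD, and 3.17 and 2.15 CPM in DD + rDKK3, above the limit that a count of 0 allows (0.142 to 0.295 CPM, for 3 counts). All groups overlapped, with WT 1 above the rest, and the log2 fold change of DD relative to WT was -0.66 with a 95% interval from -1.68 to 0.35, and 0.041 without WT 1. Per kilobase the level of Cela3b was 2927 times that of Cela3a, although the 250 bases before their starts were 88.3% identical. Both carry the same pair of CACCTG boxes in the sequences above. Further upstream their motifs differ, with CANCTG within 30 bases of TGGGAA found for Cela3a and not for Cela3b. The longest open reading frames of the 2 transcripts were 90.0% identical, and 291 of the 909 stretches of 50 bases in Cela3a also occur in Cela3b, while no other pair among the elastase, chymotrypsin or carboxypeptidase genes compared shared such a stretch. Reads were 50 bases long in each direction, so Cela3a counts are uncertain: its counts were 2.58 to 4.38 for each 10000 counts of Cela3b, and whether they came from Cela3a or from misplaced Cela3b reads was not tested.

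The chymotrypsin genes lie on the same chromosome and differed widely in level. Ctrb1 (chr8:112413151-112417642, minus strand, 7 exons) measured 66739 and 51952 CPM in WT, 54191 and 40343 CPM in DD, and 56009 and 45690 CPM in DD + rDKK3. All groups overlapped. Its log2 fold change was -0.33 (SE 0.25) in DD relative to WT, 0.11 (SE 0.25) in DD + rDKK3 relative to DD and -0.22 (SE 0.25) in DD + rDKK3 relative to WT, and the 95% interval of the first ran from -0.92 to 0.26. Without WT 1 it was -0.12, and without DD 2 it was -0.13.

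Ctrl (chr8:106658635-106660494, minus strand), the chymotrypsin-like protease, measured 2049 and 835 CPM in WT, 783 and 821 CPM in DD, and 1118 and 888 CPM in DD + rDKK3. The WT group was carried by WT 1, since WT 2 differed little from the DD libraries and was below both treated ones. Its log2 fold change was -0.85 (SE 0.38) in DD relative to WT, or -0.042 without WT 1, and 0.32 (SE 0.38) in DD + rDKK3 relative to DD. Relative to WT, the treated libraries gave -0.52 (SE 0.38), and 0.28 without WT 1.

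Of the carboxypeptidases, Cpa1 (chr6:30639217-30645362, plus strand, 10 exons), which removes aromatic and branched residues, measured 14191 and 16597 CPM in WT, 16147 and 9743 CPM in DD, and 16477 and 11812 CPM in DD + rDKK3. It was the only gene of the 9 for which WT 1 was not the highest library. The groups overlapped in every comparison, with log2 fold changes of -0.25 (SE 0.30), 0.13 (SE 0.30) and -0.12 (SE 0.30) in DD relative to WT, DD + rDKK3 relative to DD and DD + rDKK3 relative to WT. Without DD 2 the first of these was 0.07.

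Both Cpa1 and Ctrb1 were lowest in DD 2 and DD + rDKK3 2, the same 2 libraries in which the fibroblast markers summed to 730 and 819 CPM. The other 7 genes did not share this order. It was noticed after the values were seen, and the part of the fibroblast signal in it was not tested.

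Cpb1 (chr3:20302428-20329897, minus strand, 11 exons), which removes basic residues, measured 6111 and 5932 CPM in WT, 3538 and 3850 CPM in DD, and 5006 and 3781 CPM in DD + rDKK3. The WT libraries agreed closely and lay above all 4 knockout libraries, and DD + rDKK3 2 lay between the DD libraries. The log2 fold change was -0.70 (SE 0.21, unadjusted p = 0.0107, adjusted p = 0.586 by edgeR's quasi-likelihood test) in DD relative to WT, 0.25 (SE 0.21) in DD + rDKK3 relative to DD and -0.45 (SE 0.21) in DD + rDKK3 relative to WT.

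Rnase1 (chr14:51382455-51384242, minus strand, 2 exons), the secreted pancreatic ribonuclease, measured 753 and 559 CPM in WT, 327 and 400 CPM in DD, and 537 and 533 CPM in DD + rDKK3. The 3 groups did not overlap, with DD lowest, DD + rDKK3 between and WT highest. The log2 fold change was -0.85 (SE 0.21, unadjusted p = 0.00388, adjusted p = 0.555 by edgeR's quasi-likelihood test) in DD relative to WT, the smallest p of the 9 genes. Between DD + rDKK3 and DD it was 0.56 (SE 0.21, unadjusted p = 0.0288, adjusted p = 1.0 by edgeR's quasi-likelihood test), and in DD + rDKK3 relative to WT it was -0.29 (SE 0.21), or -0.044 without WT 1. DD is in both of the first comparisons, so its low values enter each.

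**Figure D3:**
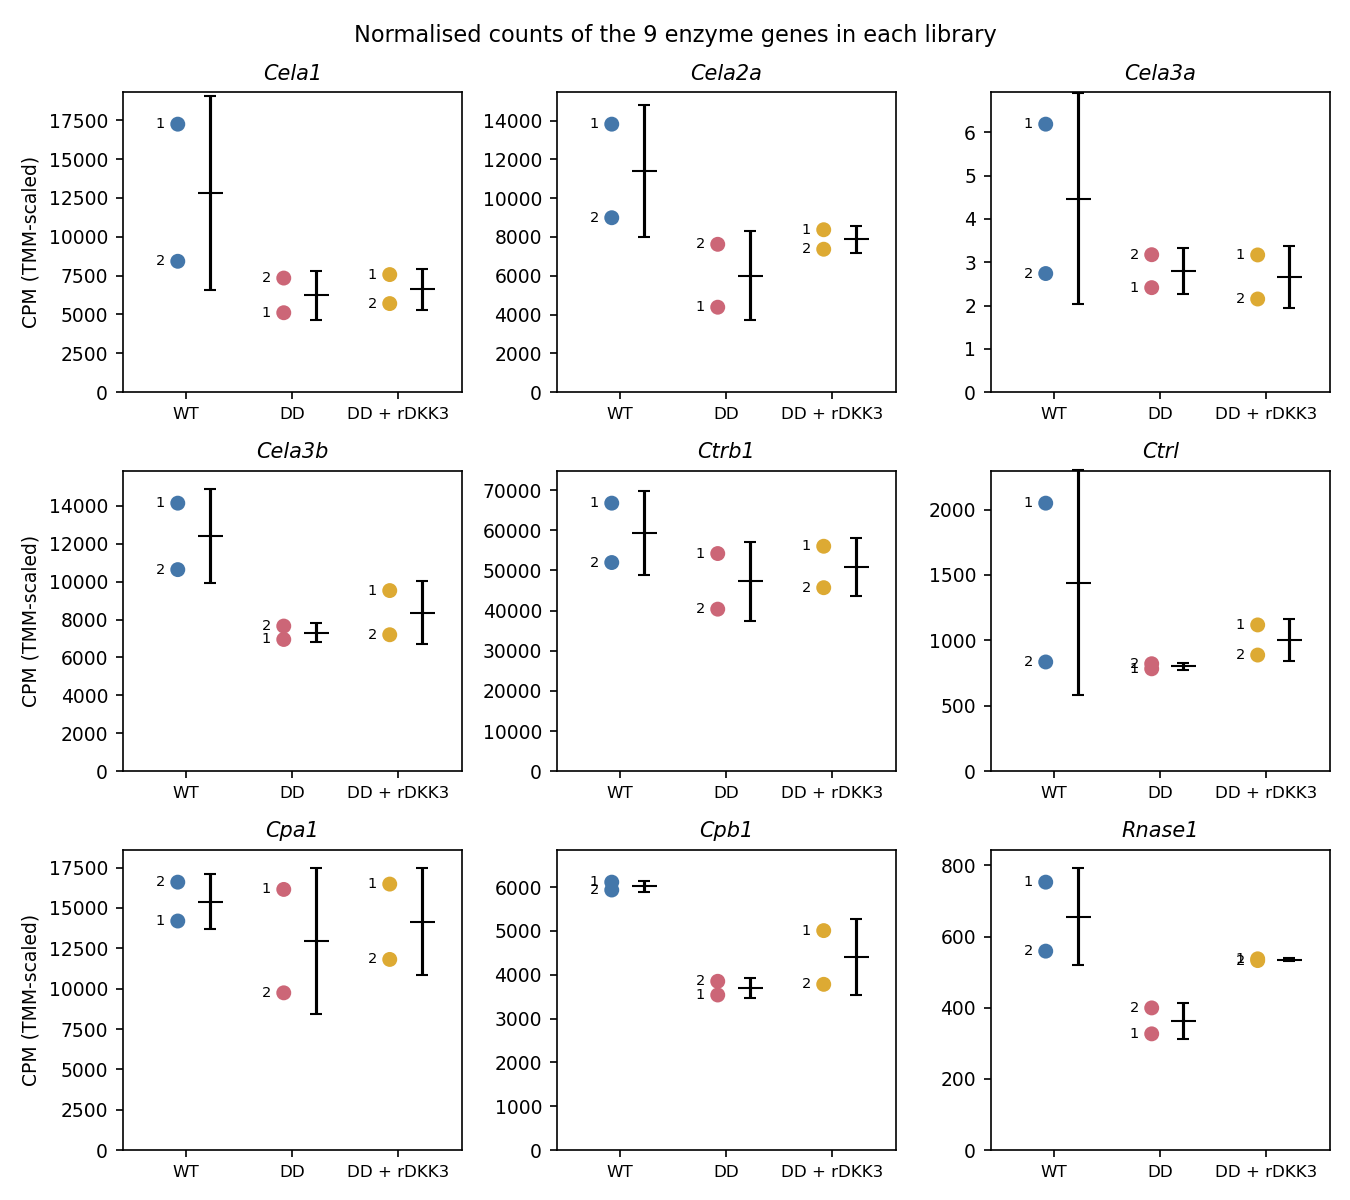
TMM-scaled CPM of each gene in each library (points, numbered by replicate) with the group mean and SD (bar, n = 2), on axes that start at 0. WT 1 is the highest library for 8 of the 9 genes and DD 1 the lowest for 6.

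The genes varied together over the 6 libraries to different degrees, given here as a description of libraries that share their group, their scaling and the libraries with high or low values. Pearson's r of log2 CPM between a gene and the mean of the other 8 was 0.978 for Cela3b, 0.947 for Cela1, 0.891 for Ctrl, 0.872 for Cpb1, 0.867 for Cela2a, 0.856 for Cela3a and 0.852 for Rnase1. It was 0.729 for Ctrb1 and 0.194 for Cpa1, and between these last genes r was 0.716. WT 1 was the highest library for 8 genes, and DD 1 was the lowest for 6 (Cela1, Cela2a, Cela3b, Ctrl, Cpb1 and Rnase1). Among the 11857 other genes with a mean log2 CPM of at least 1, those most like the mean pattern of the 9 over the 6 libraries were P3h4 (r = 0.993), Saraf (0.992), Ppp2r5c (0.991), Lmbrd1 (0.990) and Rabac1 (0.988). Other secreted pancreatic proteins, a list that also holds some proteins kept in the cell, had a median r of 0.843 against -0.061 over all 11857. Of the 26 listed, 14 ranked in the first 1000 and 0 in the first 100. The list is not complete: 2210010C04Rik, a trypsinogen gene outside it that was picked out once its values were known, ranked 8 (r = 0.986), with 5193 and 3163 CPM in WT, 1926 and 2460 CPM in DD, and 3030 and 2510 CPM in DD + rDKK3.

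Leaving out 1 library at a time showed how far the comparisons rest on WT 1. Without WT 1 the median log2 fold change of the 9 genes in DD relative to WT was -0.42 and 2 genes had an unadjusted p under 0.05, and without WT 2 the median was -1.05 and 7 genes had one. Without DD 1, 1 gene had one. The median of DD + rDKK3 relative to WT was -0.17 without WT 1 and -0.75 without WT 2.

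**Figure D4:**
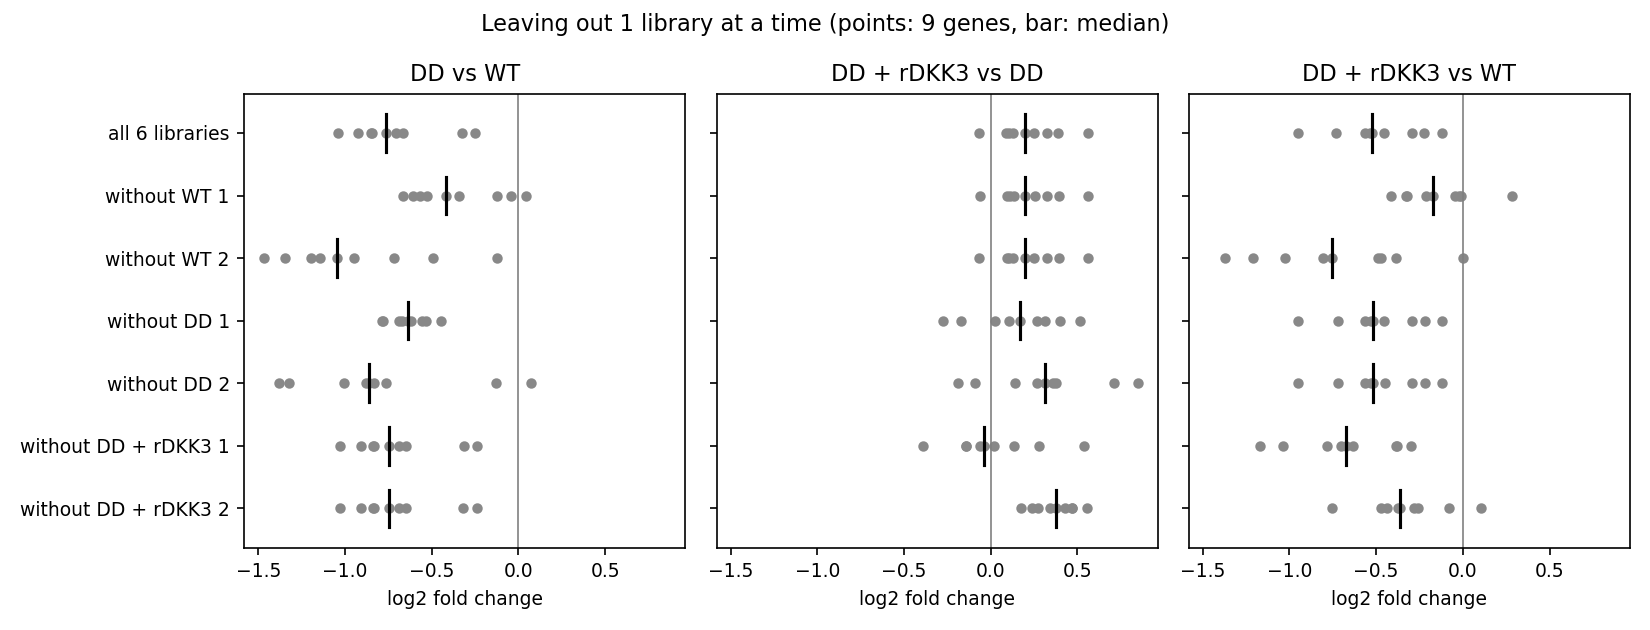
Log2 fold changes of the 9 genes (points) and their median (bar) in the 3 comparisons, with all 6 libraries in the top row and 1 library left out in each row beneath. In DD relative to WT the median is -0.42 without WT 1 and -1.05 without WT 2, and in DD + rDKK3 relative to DD it is -0.036 without DD + rDKK3 1.

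The rest of the acinar secretory programme was read from gene lists. Of 30 other genes listed as secreted pancreatic proteins, such as amylases, lipases, trypsinogens and kallikrein, 26 were tested. The list also holds proteins of the endoplasmic reticulum, which are not secreted. All 26 had a log2 fold change below 0 in DD relative to WT, with a median of -0.67 and 0 called. At an unadjusted p under 0.05, 9 were lower, against 3.99% of all genes. The smallest p belonged to Amy2b, a pancreatic amylase (404 and 230 CPM in WT, 38.4 and 56.1 CPM in DD, log2 fold change -2.75, adjusted p = 0.0786 by edgeR's quasi-likelihood test). With rDKK3 added to DD, 25 of 26 were above 0 with a median of 0.24, among them Klk1, a tissue kallikrein (1751 and 1482 CPM in DD, 2543 and 2487 CPM in DD + rDKK3, log2 fold change 0.64). Of the 26, 23 were below 0 and 3 above in DD + rDKK3 relative to WT, with a median of -0.39. Ctrc, chymotrypsin C, was scarce, at 7.05 to 23.0 CPM over the 6 libraries.

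The acinar transcription factors did not share this direction. Of 10, 7 had a log2 fold change above 0 and 3 below in DD relative to WT, with a median of 0.21 and 0 called, and all 10 were above 0 in DD + rDKK3 relative to DD, with a median of 0.14 and 0 called. Ptf1a measured 119 and 220 CPM in WT, 242 and 209 CPM in DD, and 264 and 285 CPM in DD + rDKK3, and was lowest in WT 1, the library with the highest levels of 8 of the enzyme genes. Spdef had the smallest p in DD relative to WT (log2 fold change -0.69, unadjusted p = 0.0469, adjusted p = 0.586 by edgeR's quasi-likelihood test). Relative to WT, 8 were above 0 and 2 below in DD + rDKK3, with a median of 0.25.

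The list of secretion machinery (15 of 17 genes tested) covers genes that move granules to the membrane or sense secretagogues. It also holds genes outside that description, among them Muc1, which is counted among the 14 ductal markers too. Its median log2 fold changes were -0.020, 0.059 and 0.097 in DD relative to WT, DD + rDKK3 relative to DD and DD + rDKK3 relative to WT. A list of proteases and ribonucleases made outside pancreatic juice (10 of 21 tested), not all from the families of the 9 genes, had medians of -0.16, 0.0073 and -0.26. Cpm and Cpd, membrane carboxypeptidases, had log2 fold changes of 0.34 (SE 0.15) and 0.49 (SE 0.22) in DD relative to WT, and Ang, a secreted ribonuclease, -0.48 (SE 0.18). Cpa6, Elane, Rnase6, Cma1 and Ctsg had 0 counts in all libraries.

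**Figure D5:**
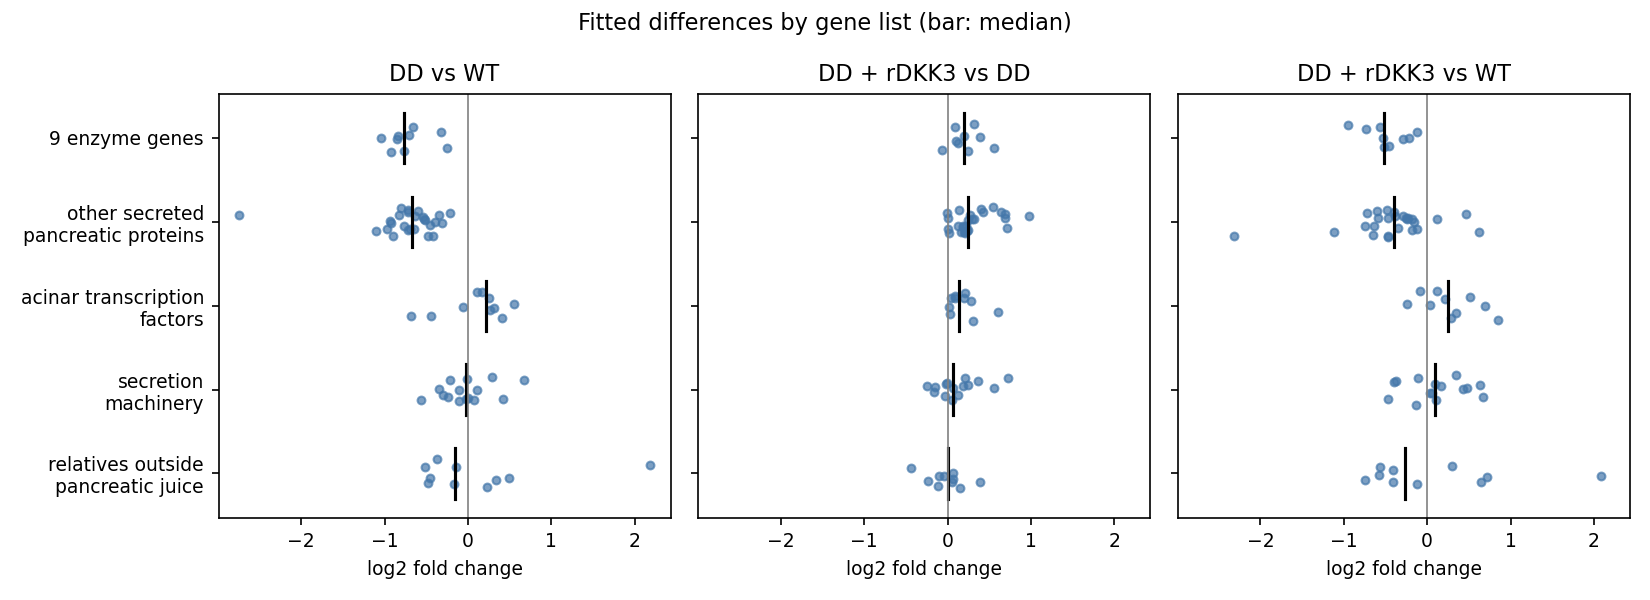
Log2 fold change of every tested gene of 5 lists (points) with the list median (bar) in the 3 comparisons. In DD relative to WT the 9 enzyme genes (median -0.76) and the 26 genes listed as other secreted proteins (median -0.67) lie below 0. The medians of the acinar transcription factors and the secretion machinery are 0.21 and -0.020.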

How the data were processed

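Per the methods of the study, strand-specific 50-base paired-end reads were aligned with STAR (2.7.9a) to GRCm39 and counted per exon of the basic GENCODE transcripts in union mode, without secondary alignments, and exon counts were summed per gene. The deposited values are these raw counts per gene and library, made by the authors without normalisation or pooling. A read shared by near-identical genes is placed or dropped by the aligner, which bears on Cela3a and Cela3b. Of 57045 features, 92 spike-in rows with 0 counts were left out.

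Here, filterByExpr of edgeR (minimum count 10, minimum total 15) left 14738 genes of the deposited table. Counts were TMM-scaled and tested two-sided with the quasi-likelihood test of edgeR (4.0.16) in R (4.3.3), all 6 libraries in 1 fit with group as the only term and Benjamini-Hochberg adjustment over all genes tested. Fold changes are fitted log2 values and intervals are 95%. CPM per kilobase used the exon length of GENCODE M39 basic transcripts. DESeq2 (1.42.0), limma-voom (limma 3.58.1), other scalings and filters, the replicate block and leaving out each library were alternatives. The fitting code was tested on simulated data. Sequences came from the GRCm39 genome.

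The 9 genes and the other lists were chosen with earlier results of these data known. From each other list the text names at most 3 genes per comparison, those with the smallest p, and by likeness the 5 genes with the highest r. Ctrc, Ptf1a in DD relative to WT, and the genes listed at 0, were named after their values were seen.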

Additional observations from a re-analysis of the deposited data

How the results depend on the processing

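Of the 9 genes, the number called in DD relative to WT was 4 without the filter on low counts, where 528 genes were called in all instead of 6, and 2 with DESeq2, where 77 were called. For DD + rDKK3 relative to WT it was 1 without the filter (788 called in all instead of 7), and 61 genes were called in all with DESeq2. In DD + rDKK3 relative to DD, 73 genes were called without the filter and 5 with DESeq2. The number of the 9 called was 0 under every other alternative run, and the cause of these differences was not tested. Over the fits without 1 library, the median of the 9 genes ranged from -1.05 to -0.42 in DD relative to WT, from -0.036 to 0.38 in DD + rDKK3 relative to DD, and from -0.75 to -0.17 in DD + rDKK3 relative to WT. Scaling by library totals alone moved the median of all genes to 0.22 in DD relative to WT and to 0.18 in DD + rDKK3 relative to WT, left 26.7% of all genes below 0 in the first in place of 48.3%, gave medians of the 9 genes of -0.54, 0.15 and -0.31, and turned Cpa1 in DD + rDKK3 relative to WT to 0.030.

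Single genes turned direction without 1 library. In DD relative to WT the log2 fold change of Cela3a ranged from -1.14 to 0.041 and that of Cpa1 from -0.64 to 0.070. In DD + rDKK3 relative to DD the ranges were -0.17 to 0.38 for Cela1, -0.39 to 0.18 for Cela3a, -0.036 to 0.38 for Cela3b, -0.090 to 0.31 for Ctrb1 and -0.19 to 0.52 for Cpa1. In DD + rDKK3 relative to WT they were -1.02 to 0.28 for Ctrl and -0.38 to 0.10 for Cpa1.

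The replicate numbers were not treated as pairing. In the library titles, DD1 and DD2 name both untreated and rDKK3-treated knockout cultures. The labels do not say whether a shared name means a shared animal, and the labelled ages differ. Same-numbered libraries deviated from their group means with r of -0.39 (WT and DD), -0.25 (WT and DD + rDKK3) and 0.65 (DD and DD + rDKK3). Fibroblast markers also matched by number in the knockout groups, with 60.3 and 147 CPM in DD 1 and DD + rDKK3 1, and 730 and 819 CPM in DD 2 and DD + rDKK3 2. A pairing of DD with DD + rDKK3 alone was not tested, and the replicate block spanned all 3 groups. With the replicate block the medians were -0.73, 0.17 and -0.46, none of the 9 was called, and 7, 0 and 5 genes were called in all. With 2 libraries a group the spread between libraries limits all 9 genes, Cela3a included: its 95% exact Poisson intervals of 4.76 to 7.92 CPM in WT 1 and 1.95 to 3.74 CPM in WT 2 do not overlap.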
